A study of Rattus norvegicus with 9 samples.

Results

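The genes described here are 9 antioxidant enzyme genes (Sod1, Sod2, Cat, Gpx1, Gpx4, Prdx6, Txnrd1, Hmox1 and Gclc) and Nfe2l2, which encodes the transcription factor Nrf2. They were chosen by name, as transcript clusters of the array annotated with exactly 1 gene symbol, out of 22093 genes with 1 symbol. Each of the 10 genes had 1 such cluster, and all 10 were among the 15522 genes bright enough to be tested. Signal was measured on Clariom D rat arrays, 1 array per tissue sample, in male rats that the study calls healthy, with no technical replicates. Stimulated rats received transcranial focal stimulation (TFS), an electrical current delivered through the scalp, for 5 min with 50 mA at 300 Hz. Tissue was taken after 4 h. There were 3 groups of 3 arrays, from the bilateral hippocampus of TFS rats, the same region of sham rats, and the bilateral parietotemporal cortex of sham rats. Sham rats were handled in the same way without current. The labels name no genetic change, strain or age, and leave unsaid whether arrays come from separate animals, so p-values measure only the spread between these samples.

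Superoxide dismutases turn superoxide into hydrogen peroxide, which catalase, glutathione peroxidases and peroxiredoxins then remove. Glutathione and thioredoxin supply the electrons for much of this work, and in brain both are maintained by neurons and glia, with astrocytes a main source of glutathione precursors. Nrf2 is kept low by Keap1, which directs its degradation. Oxidants and electrophiles release it, and with small Maf proteins it binds antioxidant response elements and raises genes such as Hmox1, Gclc and Txnrd1. Nrf2 is regulated largely at the protein level, which an RNA array does not measure.

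The antioxidant response element links Nrf2 to its targets, so promoters of the 10 genes were searched for its core, TGACNNNGC, on both strands. RefSeq promoters (rat build GRCr8, 250 bases before to 50 bases after a transcript start) were at hand for 8 of the 10 genes, all except Prdx6 and Hmox1. The core was found for Sod2, Txnrd1 and Nfe2l2, 3 of the 8, against 13.1% of all 27457 genes with a promoter. Counted by promoter, 12.1% of all 33469 had a match, and the 8 genes had 11 promoters. Sequence outside these promoters was not searched, so a gene without a match may hold the core elsewhere. The 29 bases around each match are given on the strand of the gene, with the core in capitals. The matches of Sod2 and Txnrd1 read as the reverse complement, and that of Txnrd1 lies in 1 of its 2 listed promoters.
Sod2, chr1:50050185-50050213, minus strand: ggcgctgccgGCAGGGTCAgcgcctagct
Txnrd1, chr7:22755964-22755992, minus strand: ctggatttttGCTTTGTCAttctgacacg
Nfe2l2, chr3:81028950-81028978, minus strand: ctgctccgactagccatTGACGCCGCctc
Counted from the transcript start, the match begins at position -35 in Sod2, at -78 in Txnrd1 and at 39 in Nfe2l2. A match is a run of letters and does not show that Nrf2 binds there.

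Values are log2 array signals, normalized by the submitters, with array medians between 4.95 and 5.04. Signals under 7.57, the level that 95% of negative control probe sets stayed below, are called within the background range here. Medians of the negative controls were 4.06 to 4.21, and 4466 of the 15522 tested genes had means above 7.57. A mean within that range does not by itself show that a transcript is absent. Sod1, Sod2, Cat, Gpx1, Gpx4, Prdx6 and Txnrd1 had means above it. Gclc (mean 7.42), Nfe2l2 (6.61) and Hmox1 (6.10) had means below it, which limits what their signals show about the transcripts. Arrays summarised by median polish often take identical values, and 8 of the 10 genes had the same value on at least 3 of the 9 arrays, as did 55.1% of all tested genes. Hmox1 had a single value on 8 arrays, so small differences of such genes and their narrow intervals should be read with that in mind. The hippocampal and the cortical sham array numbered 1 stood apart from the other 7 arrays on the second principal component of the tested genes, which held 8.96% of the variance. Positive control probe sets lay 3.73 and 3.67 log2 units above negative ones on these 2 arrays, against 3.80 or more on the others. Array 1 had the lowest value of its group for 5 of the 10 genes in sham hippocampus (Sod1, Cat, Txnrd1, Gclc and Nfe2l2), against 34.5% of all tested genes. In sham cortex it was the lowest for 4 of the 10 (Sod1, Cat, Gclc and Nfe2l2), against 35.4% of all tested genes. Whether these arrays shape the differences of the 10 genes was examined by leaving them out, and those values are given beside the results.

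**Figure D1:**
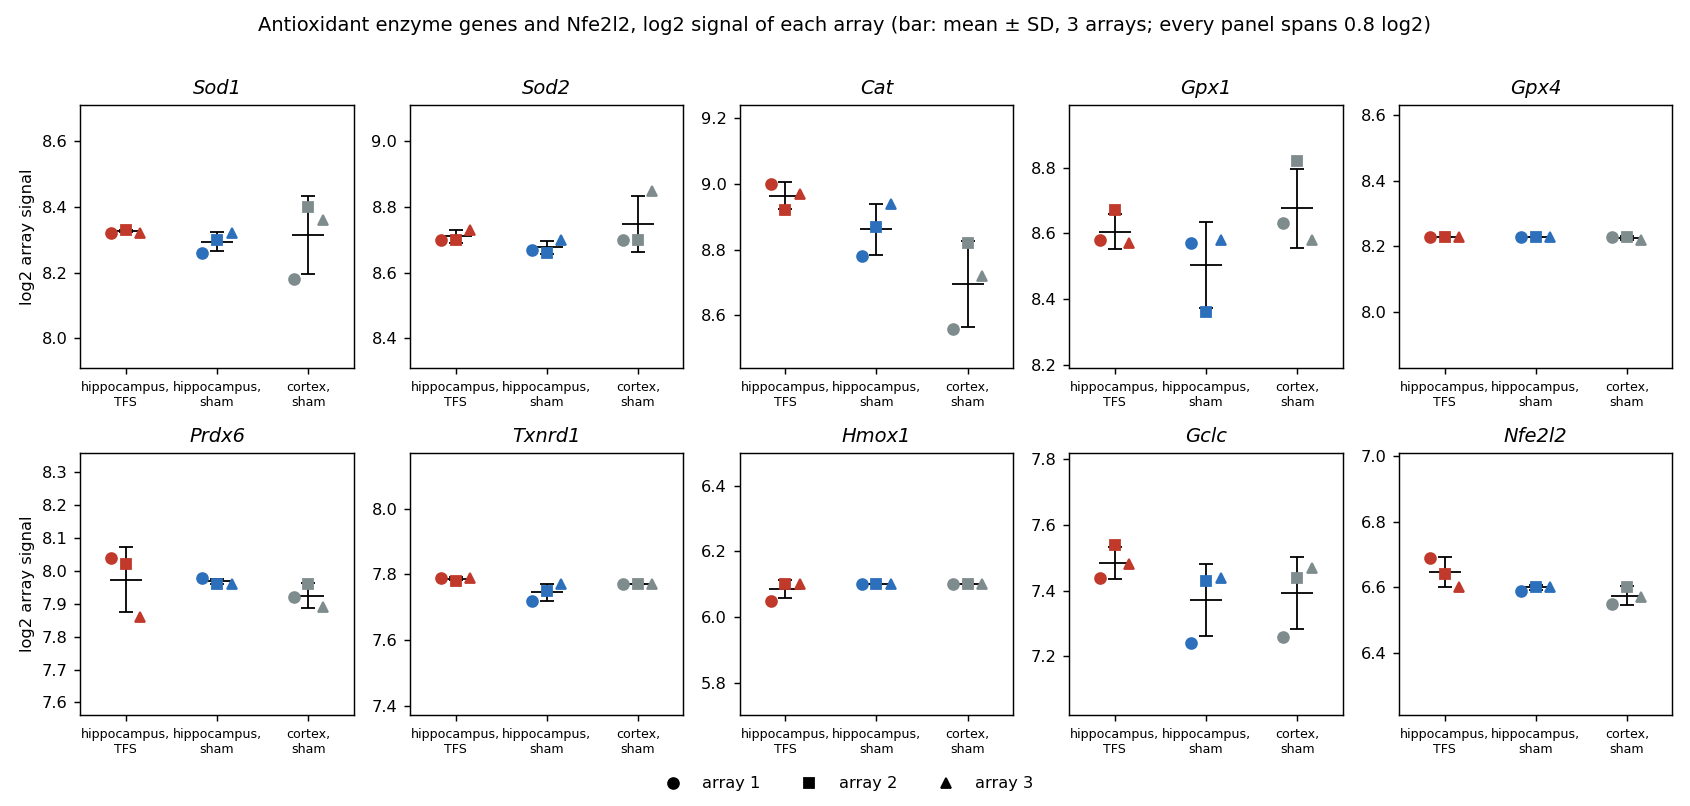
Log2 array signal of the 10 genes on each array, with hippocampus after TFS, hippocampus of sham rats and cortex of sham rats from left to right in every panel. Points are single arrays, horizontal bars are means and error bars are SDs of 3 arrays. Every panel spans 0.8 log2 units. TFS and sham arrays of hippocampus overlap in every panel except that of Txnrd1, where the 3 TFS arrays lie just above the 3 sham arrays.

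The first comparison asks whether the hippocampus carries a different antioxidant gene signal 4 h after TFS. None of the 10 genes passed the limma test, with adjusted p between 0.923 and 1. Log2 differences of TFS minus sham ran from -0.02 for Hmox1 to 0.11 for Gclc. The 95% confidence intervals of array signal, each for a single gene, lay between 0.93- and 1.22-fold for all 10. For Gclc, Nfe2l2 and Hmox1, whose means were within the background range, they do not bound a change of the transcript. Over all genes, limma called 0 of 15522 (0%) at an adjusted p under 0.05, and 805 (5.19%) had an unadjusted p under 0.05, 4.37% higher and 0.812% lower after TFS, as did 1 of the 10 genes, Txnrd1, on the higher side. The design of 3 against 3 arrays cannot give an exact permutation p below 0.1 for a single gene.

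Sod1, the cytosolic copper and zinc superoxide dismutase, had signals of 8.32, 8.33 and 8.32 in TFS hippocampus, against 8.26, 8.30 and 8.32 in sham hippocampus. The groups overlapped at their shared value of 8.32, and the difference was 0.03 (SE 0.052, limma adjusted p = 0.964). Sod2, the manganese superoxide dismutase of mitochondria, measured 8.70, 8.70 and 8.73 in TFS hippocampus and 8.67, 8.66 and 8.70 in sham hippocampus. TFS arrays of Sod2 were at or above every sham array, with a difference of 0.03 (SE 0.040, limma adjusted p = 0.937). After quantile normalization of the tested genes the differences of Sod1 and Sod2 turned to -0.01 and -0.0074, so neither gene had a direction that held under every scaling.

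Catalase, which splits hydrogen peroxide in peroxisomes, is encoded by Cat. Its signal was 9.00, 8.92 and 8.97 in TFS hippocampus, against 8.78, 8.87 and 8.94 in sham hippocampus. Only the TFS array at 8.92 lay below the highest sham array, and the difference was 0.10 (SE 0.068, limma adjusted p = 0.923). The difference of Cat was 0.06 without sham array 1, 0.14 without sham array 3 and 0.05 after quantile normalization. Gpx1, the main cytosolic glutathione peroxidase, measured 8.58, 8.67 and 8.57 in TFS hippocampus and 8.57, 8.36 and 8.58 in sham hippocampus. The low sham array, number 2, set most of the difference of 0.10 (SE 0.079, limma adjusted p = 0.923), which was 0.03 without it. That difference was 0.14 without sham array 3, 0.13 without both sham arrays numbered 1 and 0.06 after quantile normalization.

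Gpx4, which reduces lipid hydroperoxides in membranes and protects cells from ferroptosis, was at 8.23 on all 3 TFS and all 3 sham arrays of hippocampus. Its difference was below 0.01 in size, and its interval of 0.979- to 1.02-fold was the narrowest of the 10 genes in this comparison. Prdx6, a peroxiredoxin that also repairs oxidised phospholipids, measured 8.04, 8.02 and 7.86 in TFS hippocampus and 7.98, 7.96 and 7.96 in sham hippocampus. TFS arrays of Prdx6 lay on both sides of the sham arrays. The SD was 0.099 in TFS hippocampus and 0.0076 in sham hippocampus (n = 3 each), the difference was 0.005 (SE 0.047), and limma gave an adjusted p = 1. It was -0.01 after median centring and -0.0292 after quantile normalization.

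Txnrd1, the cytosolic thioredoxin reductase that keeps thioredoxin reduced, was the single gene of the 10 whose TFS and sham arrays did not overlap. Signals were 7.79, 7.78 and 7.79 in TFS hippocampus, against 7.72, 7.75 and 7.77 in sham hippocampus. The difference was 0.04 (SE 0.017), an interval of 1.002- to 1.058-fold, and did not pass (limma adjusted p = 0.923). Such a gap was seen for 9.77% of all tested genes, 8.57% with TFS arrays higher, so 1 of 10 genes is close to that share. Without the sham arrays numbered 1 the difference of Txnrd1 was 0.03 and the unadjusted limma p was 0.0679, against 0.0395 with them. It was 0.03 after median centring and 0.0096 after quantile normalization.

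Gclc encodes the catalytic subunit of glutamate-cysteine ligase, the rate-limiting enzyme of glutathione synthesis. It measured 7.44, 7.54 and 7.48 in TFS hippocampus and 7.24, 7.43 and 7.44 in sham hippocampus. Sham array 1 was far below the other 5 arrays, which lay within 0.11 log2 units of each other. The difference of 0.11 (SE 0.071, limma adjusted p = 0.923) became 0.05 without the sham arrays numbered 1 and 0.15 without sham array 3. Hmox1, the inducible haem oxygenase and a sensitive Nrf2 target, was at 6.05, 6.10 and 6.10 in TFS hippocampus and at 6.10 on all 3 sham arrays. Apart from TFS array 1 its signal was identical everywhere, at a level within the background range, with a difference of -0.02 (SE 0.017, limma adjusted p = 0.934).

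Nfe2l2 itself measured 6.69, 6.64 and 6.60 in TFS hippocampus, against 6.59, 6.60 and 6.60 in sham hippocampus. The lowest TFS array shared its value with sham arrays 2 and 3, so the groups touched. The difference was 0.05 (SE 0.026), an interval of 0.989- to 1.08-fold, with a limma adjusted p of 0.923. It was 0.02 without TFS array 1 and 0.07 without TFS array 3. On all 9 arrays the signal of Nfe2l2 was in the background range.

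Of the 10 genes 8 had a difference above 0, as did 61% of all tested genes. After median centring 7 of the 10 were above 0, and after quantile normalization 5 of 10. Their median difference was 0.038, against 0.011 over all tested genes and 0.039 over the 4466 tested genes brighter than the background range. The distance between positive and negative controls was 3.95 or more on TFS arrays and 3.73 to 3.96 on hippocampal sham arrays, and its part in these small differences was not tested.

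**Figure D2:**
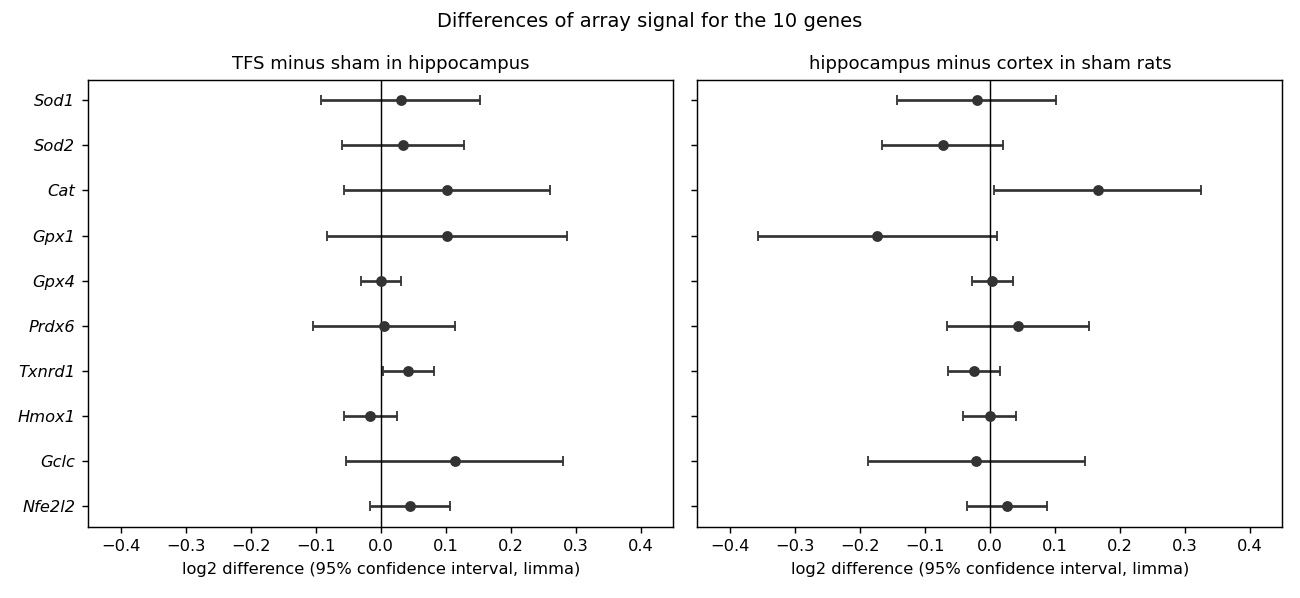
Log2 differences of array signal for the 10 genes, TFS minus sham in hippocampus on the left and hippocampus minus cortex in sham rats on the right. Points are limma estimates and bars are 95% confidence intervals. The intervals of Txnrd1 on the left and Cat on the right do not reach 0, and neither gene passed after adjustment over 15522 genes.

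The second comparison sets hippocampus against parietotemporal cortex in sham rats. Limma called 0 of the 10 genes here and 1931 of 15522 genes (12.4%), 5.99% higher and 6.46% lower in hippocampus. At an unadjusted p under 0.05 there were 1 of the 10 genes, Cat, which was higher, and 25.6% of all tested genes, 12.4% higher and 13.3% lower. No gene of the 10 had hippocampal arrays entirely apart from cortical ones, against 24.1% of all tested genes, 11.4% with hippocampus higher. Of the 10 genes 4 had a difference above 0, as did 46.3% of all tested genes. Differences of the 10 genes had a median size of 0.026 log2 units, against 0.053 over all tested genes.

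Cat and Gpx1, which both remove hydrogen peroxide, had the largest differences of the 10 genes, in opposite directions. Cat measured 8.78, 8.87 and 8.94 in hippocampus and 8.56, 8.82 and 8.72 in cortex. Hippocampal array 1 was the single one below the highest cortical array. The difference was 0.17 (SE 0.068), an interval of 1.005- to 1.252-fold, with a limma adjusted p of 0.177. Gpx1 measured 8.57, 8.36 and 8.58 in hippocampus, against 8.63, 8.82 and 8.58 in cortex. The highest hippocampal and the lowest cortical array shared the value 8.58, and the difference was -0.17 (SE 0.079, limma adjusted p = 0.221). Single arrays moved both values. The difference of Cat was 0.10 without cortical array 1, 0.23 without cortical array 2 and 0.13 without both sham arrays numbered 1 (limma adjusted p = 0.165 for the last). That of Gpx1 was -0.10 without hippocampal array 2, -0.10 without cortical array 2 and -0.23 without both sham arrays numbered 1 (adjusted p = 0.288).

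The superoxide dismutases differed less between the regions. Sod2 had 8.67, 8.66 and 8.70 in hippocampus and 8.70, 8.70 and 8.85 in cortex, a difference of -0.07 (SE 0.040, limma adjusted p = 0.313). Cortical array 3 alone was clearly above the hippocampal range, and without it the difference of Sod2 was -0.02. Sod1 had 8.26, 8.30 and 8.32 in hippocampus, against 8.18, 8.40 and 8.36 in cortex, where array 1 was the lowest of all 9 arrays. The difference of Sod1 was -0.02 (limma adjusted p = 0.851). It became -0.07 without the sham arrays numbered 1 (adjusted p = 0.111), and was above 0 when cortical array 2 or 3 was left out.

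The remaining 6 genes differed by at most 0.04 log2 units between the regions, with limma adjusted p from 0.409 to 1. Prdx6 was at 7.92, 7.96 and 7.89 in cortex, close to its hippocampal sham values, and differed by 0.04. Txnrd1 was at 7.77 on all 3 cortical arrays, at the top of its hippocampal sham range, and differed by -0.02. Gclc was at 7.26, 7.44 and 7.47 in cortex, with array 1 low as in sham hippocampus, and its difference of -0.02 turned to 0.04 without hippocampal sham array 1. Nfe2l2 was at 6.55, 6.60 and 6.57 in cortex and differed by 0.03. Gpx4, at 8.23, 8.23 and 8.22 in cortex, and Hmox1, at 6.10 on all 3 cortical arrays, showed next to no difference.

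**Figure D3:**
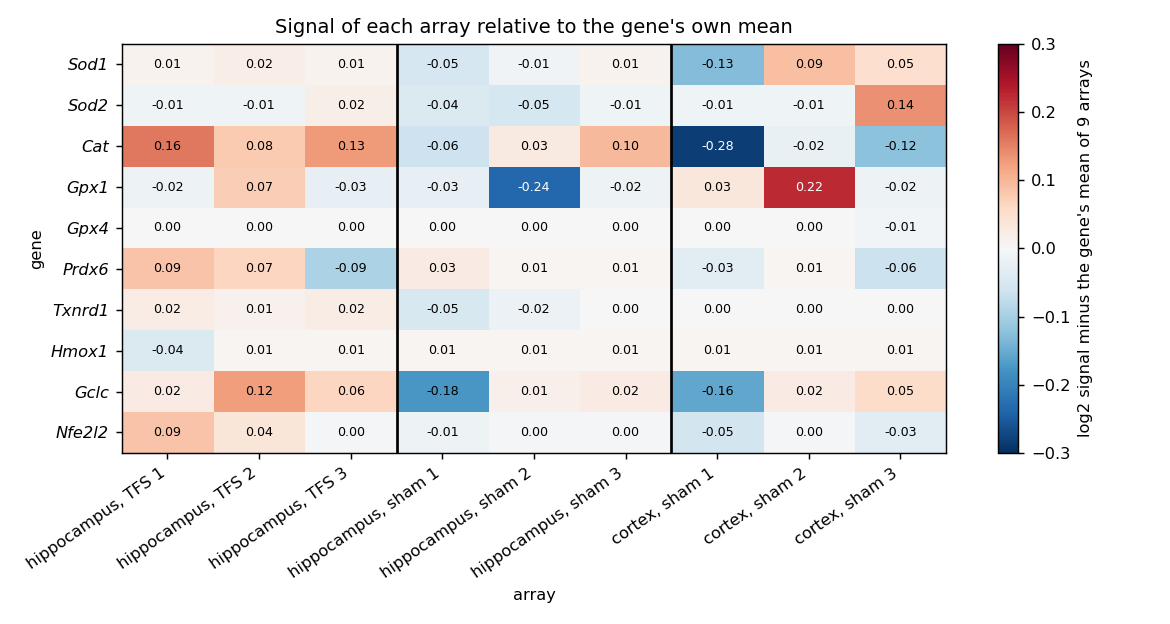
Signal of each array minus the mean of the gene over 9 arrays, in log2 units, for the 10 genes in rows and the arrays in columns, hippocampus after TFS, hippocampus of sham rats and cortex of sham rats from left to right. Red is above and blue below the mean of the gene. Gclc and Sod1 are low on the sham arrays numbered 1, Gpx1 is low on hippocampal sham array 2, and Gpx4 and Hmox1 are nearly flat.

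By the means of the groups, Cat ranked TFS hippocampus (8.96 ± 0.041), sham hippocampus (8.86 ± 0.077) and sham cortex (8.70 ± 0.13, SD, n = 3 each). Neighbouring groups of Cat overlapped in single arrays. Gpx1 ranked differently, with TFS hippocampus (8.61 ± 0.053) between sham hippocampus (8.50 ± 0.13) and sham cortex (8.68 ± 0.12, SD, n = 3 each). Its neighbouring groups overlapped as well. In bulk tissue a change in the share of a cell type and a change in RNA per cell cannot be told apart.

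Around the 10 genes, 66 other genes of antioxidant defence and Nrf2 control, listed in 9 groups, were tested. Gpx2 and Nqo2 were listed too and were below the filter on signal. In TFS against sham hippocampus 0 of the 66 passed by limma, and 2 had an unadjusted p under 0.05, next to 5.19% of all tested genes. These were Sqstm1, the autophagy receptor that binds Keap1, and Hmox2, the constitutive haem oxygenase. Sqstm1 measured 8.81, 8.81 and 8.73 in TFS hippocampus and 8.70 on each sham array, a difference of 0.08 (limma adjusted p = 0.772). Hmox2 measured 9.39, 9.41 and 9.44 in TFS hippocampus and 9.38, 9.34 and 9.34 in sham hippocampus, a difference of 0.06 (limma adjusted p = 0.904). TFS arrays lay above all sham arrays in both genes, as in 6 of the 66 in all and in 8.57% of all tested genes. Next by p were Me1, the NADPH-producing malic enzyme, at 0.10, the iron exporter gene Slc40a1 at -0.09 and the glutathione-degrading enzyme gene Chac1 at 0.17, each with a limma adjusted p of 0.923. Slc40a1 and Chac1 were within the background range, and single sham arrays moved both. The difference of Slc40a1 was -0.05 without sham array 2 and -0.12 without sham array 1. That of Chac1 was 0.11 without sham array 3 and 0.245 without sham array 1. After quantile normalization the differences were 0.04 for Sqstm1, 0.0066 for Hmox2 and 0.06 for Me1. The median difference of the 66 genes was 0.019. Among the 14 genes of Nrf2 partners and regulators, Keap1 included, 10 were above 0 and the median was 0.008.

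Between regions of sham rats 8 of the 66 genes passed by limma, 4 higher and 4 lower in hippocampus. Over all tested genes that share was 12.4%, so 8 of 66 genes is close to it. The lists are small, and none was tested as a set. Quinone reductase and NADPH supply had 2 of 7 tested genes higher in hippocampus and 0 lower, where 5.99% of all tested genes were higher and 6.46% lower. Nqo1, the quinone reductase of that list, had -0.11 and did not pass (limma adjusted p = 0.102), at a level within the background range. Me1 measured 8.55, 8.61 and 8.60 in hippocampus, against 8.11, 8.30 and 8.15 in cortex, a difference of 0.40 (SE 0.046, limma adjusted p = 0.00158). Taldo1, the pentose phosphate enzyme transaldolase, differed by 0.27 (SE 0.066, limma adjusted p = 0.0357) and passed in 12 of 22 alternative settings. Fth1, the heavy chain of the iron store ferritin, was the 1 of 7 haem and iron genes that passed, higher by 0.13 (limma adjusted p = 0.0308), and it too passed in 12 of 22.

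Peroxiredoxins and their partners had 2 of 9 genes lower in hippocampus and 0 higher, against 6.46% lower and 5.99% higher among all tested genes. Sesn3, a stress-induced sestrin, measured 8.73, 8.84 and 8.93 in hippocampus and 9.18, 9.17 and 9.17 in cortex. All hippocampal arrays of Sesn3 lay below all cortical ones, by -0.34 (SE 0.045, limma adjusted p = 0.00269). Prdx5, a peroxiredoxin found in mitochondria and peroxisomes, measured 6.96, 6.98 and 7.03 in hippocampus and 7.13, 7.11 and 7.15 in cortex, a difference of -0.14 (limma adjusted p = 0.00503) within the background range. In the 6 sham arrays alone with the array number as a replicate block, the limma adjusted p was 0.0579 for Sesn3 and 0.0524 for Prdx5. Methionine sulfoxide reductases repair oxidised methionine. Their list, which holds some other genes too, had 1 of 8 tested genes higher and 1 lower. Msra was higher by 0.27 (limma adjusted p = 0.0147). Msrb3 differed by -0.17 (limma adjusted p = 0.0139), at a level within the background range, which limits what its difference shows.

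Of 14 Nrf2 partners and regulators 1 passed, Nfe2l1, a transcription factor related to Nrf2. It measured 7.62, 7.64 and 7.67 in hippocampus and 7.74, 7.73 and 7.79 in cortex, a difference of -0.11 (limma adjusted p = 0.0299). With the array number as a fixed replicate block its limma adjusted p was 0.0719, and with a random block over the 9 arrays Nfe2l1 still passed. The lists of superoxide dismutase partners, glutathione peroxidases, thioredoxins and glutaredoxins, and glutathione synthesis had 0 genes past the threshold out of 2, 3, 9 and 7 tested, with 0, 0, 0 and 2 at an unadjusted limma p under 0.05. In the 6 sham arrays alone with the fixed block 3 of the 8 passed, Me1, Taldo1 and Msra. Without the sham arrays numbered 1, Sesn3, Prdx5 and Me1 still passed and 5 of the 8 did not. Left out singly, hippocampal sham arrays 1, 2 and 3 left 5, 4 and 5 of the 8 past the threshold, and cortical arrays 1, 2 and 3 left 5, 6 and 7.

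**Figure D4:**
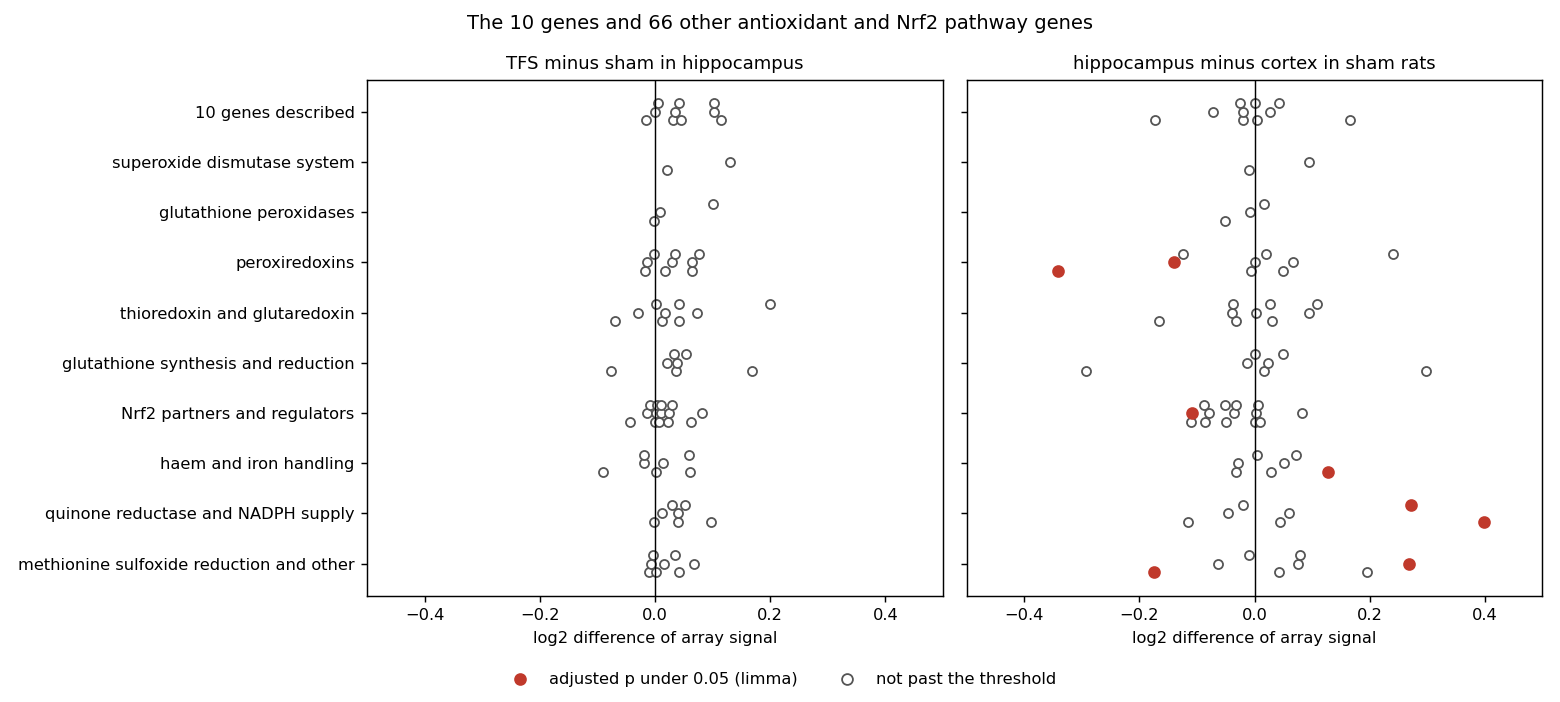
Log2 differences of array signal for the 10 genes (top row) and for 66 other tested genes in 9 lists, TFS minus sham in hippocampus on the left and hippocampus minus cortex in sham rats on the right. Each point is a gene, spread vertically for legibility, and filled points have a limma adjusted p under 0.05. No point is filled on the left and 8 are filled on the right, none of them among the 10 genes.

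Markers of the main brain cell types were read on the same arrays. All 10 neuron markers, 9 of 10 astrocyte markers and all 9 measured oligodendrocyte markers had means above the background range, as did 4 of 10 microglia and 3 of 9 endothelial and pericyte markers. Mean signals of the astrocyte list were 8.94 to 8.99 in TFS hippocampus, 8.89 to 8.91 in sham hippocampus and 8.72 to 8.86 in sham cortex. Those of the neuron list were 10.97 to 10.99 in TFS hippocampus, 10.88 to 10.93 in sham hippocampus and 10.90 to 10.99 in sham cortex. Oligodendrocyte markers were at 8.82 to 8.96 in TFS hippocampus, 8.78 to 9.00 in sham hippocampus and 8.26 to 8.78 in sham cortex. Red blood cells are rich in catalase and peroxiredoxins. Of their 6 measured markers 2 had means above the background range. Mean signals of that list were 7.06 to 7.13 in TFS hippocampus, 6.92 to 7.60 in sham hippocampus and 7.05 to 7.49 in sham cortex. Choroid plexus markers had a mean of 5.76 to 6.90 in TFS hippocampus, 6.26 to 7.04 in sham hippocampus and 5.50 to 5.52 in sham cortex, with 1 of 8 above the background range. Microglia markers were at 7.08 to 7.12 in TFS hippocampus, 7.04 to 7.09 in sham hippocampus and 7.01 to 7.13 in sham cortex. Endothelial and pericyte markers were at 7.12 to 7.23 in TFS hippocampus, 7.10 to 7.21 in sham hippocampus and 7.36 to 7.44 in sham cortex. The part of these lists in the differences of the 10 genes was not tested.

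Genes most like the members were ranked by Pearson correlation of log2 signal over the 9 arrays, as a description. The arrays share their region and the arrays numbered 1, and a few tied values can set such a correlation. For Nfe2l2 the most similar tested genes were Ankrd11 (r = 0.986), St6gal1 (0.983) and Fads1 (0.973). For Cat they were Mgst1 (r = 0.985), Stk3 (0.985) and Vdac3 (0.979). Gpx1 was followed most closely by Prxl2c (r = 0.989), Wdr41 (0.987) and Zkscan5 (0.973). Sod2 had Ppat (r = 0.988), Arih2 (0.978) and Map7d1 (0.976), and Txnrd1 had Cep19 (r = 0.957), Btf3 (0.956) and Zfp623 (0.948). No other gene of the 10 was among these 15 genes.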

How the data were processed

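The authors deposited log2 signal values per transcript cluster or control probe set for 9 arrays. RMA and limma are listed in the submitters' processing notes, with neither version nor role. Build and annotation version: not given in the sources used here. Of 68842 transcript clusters, 23446 had 1 symbol in the platform annotation, giving 22093 genes, and 1 symbol was updated through RefSeq. The brightest cluster was used per gene, and 15522 genes whose mean reached 4.99, the median over all clusters, were tested.

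All 9 arrays entered a single limma fit (lmFit, eBayes; limma 3.58.1, R 4.3.3), in which each group had its own mean. Tests are two-sided, with Benjamini-Hochberg adjustment over 15522 genes and a threshold of 0.05. On simulated data of 15522 genes for the TFS comparison, with 200 changed genes, the fit found 93% of those changed by 0.5 log2 units and 100% of those changed by 1. It also called 14 unchanged genes. The simulated noise was normal and independent between arrays, without the tied values and shared array deviations of the real arrays. These shares therefore do not give the power in the real data.

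The members and lists were chosen with earlier results of these data known. Named were the 10 genes, pathway genes past the threshold (at most 4 per list) or else the 5 of smallest p, and for 5 members the 3 most similar genes.

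Arrays were checked for pairing by number from their deviations from group means. Sham hippocampal and cortical arrays of like number correlated at 0.416, 0.202 and 0.252, and those of unlike number between -0.291 and 0.0604. The labels give no pairing. Both sham arrays numbered 1 stood apart from the others, and the part of that in these correlations was not tested. The reported fit has no block, and fits with the number as a replicate block, as a fixed or a random effect, are alternatives. TFS and sham hippocampal arrays of like number correlated at -0.111, -0.287 and -0.025, and those of unlike number between -0.134 and 0.264. Deviations within a group sum to 0, which builds in part of the contrast between like and unlike numbers. The alternatives were other filters, rows, scalings, eBayes options, weights, blocks and arrays left out. The number of arrays limits the precision.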

Additional observations from a re-analysis of the deposited data

How the results depend on the processing

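None of the 10 genes passed in either comparison under any of the 22 alternatives tried, although the stricter filter on signal left 9 of the 10 to test. The limma adjusted p of the 10 genes was at least 0.488 for TFS minus sham and at least 0.0637 for hippocampus minus cortex. Of 219 values per comparison 6 turned direction for TFS minus sham and 7 for hippocampus minus cortex. Many of the 219 could not turn. Other filters and rows, eBayes options, blocks, the 6 arrays alone and arrays left out of the group not compared leave these differences unchanged. These counts therefore do not show how stable the directions are. For TFS minus sham, quantile normalization gave -0.01 for Sod1, -0.0074 for Sod2 and -0.0292 for Prdx6, and median centring gave -0.01 for Prdx6. Leaving out 1 array gave Prdx6 values from -0.0266 to 0.0621. For hippocampus minus cortex, quantile normalization gave -0.0034 for Gpx4 and array weights gave 0.0046 for Gclc. Leaving out 1 array gave Sod1 values from -0.086 to 0.0234 and Gclc values from -0.0856 to 0.0435. Genes called over the whole table for TFS minus sham were 1 with array weights and 1 without both sham arrays numbered 1, against 0. For hippocampus minus cortex they were 1211 in the 6 arrays alone and 982 in these 6 with the replicate block, against 1931, and 1285 to 2183 with 1 array left out. Of the pathway genes 8 passed in that comparison. Counting any pathway gene, also those outside the 8, 4 passed with every row tested and 5 in the 6 arrays alone. There were 5 without both sham arrays numbered 1, of which 3 were among the 8, and 4 to 11 with 1 array left out. Me1 passed in all 22 alternatives, Sesn3 and Prdx5 in 21, Msra in 20, Msrb3 in 18, Taldo1 and Fth1 in 12 and Nfe2l1 in 11. Between regions, the replicate block over all 9 arrays called 1925 genes as a fixed effect and 2077 as a random effect, with 0 of the 10 in both. The fit of 6 arrays with the block and the fit without the sham arrays numbered 1 were chosen after seeing the data. As a fixed effect over 9 arrays the block ended the call of Nfe2l1 alone among the 8, and as a random effect it ended 0. In the 6 arrays alone the fixed block ended 5 of the 8, Sesn3, Prdx5, Nfe2l1, Fth1 and Msrb3. Signal within the background range limits what Hmox1, Nfe2l2 and Gclc show.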
